A study of Homo sapiens with 7 samples.

Results

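AML1-ETO occupancy and H3K4me3 were compared at the transcriptional start sites (TSSs) of protein-coding genes in Kasumi-1 cells. A gene was taken as positive for a mark when a peak summit of that list lay within 1 kb of its TSS, and 12152 of 20162 genes were positive for at least 1 of the 2 marks. Of these, 3417 genes carried AML1-ETO and H3K4me3, 285 carried AML1-ETO without H3K4me3 (AML1-ETO alone), and 8450 carried H3K4me3 without AML1-ETO (H3K4me3 alone), whatever other proteins were there. The other 8010 genes carried neither.

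Kasumi-1 is an established myeloblast line grown from the peripheral blood of a patient with acute myeloid leukemia that carries the t(8;21) translocation. All libraries came from untreated cells in log phase, cross-linked with formaldehyde, and the groups are set by the antibody used for immunoprecipitation: ETO for the fusion protein, AML1, N-CoR, p300 and H3K4me3. The AML1 antibody was directed to the part of the protein that the fusion lacks. Each antibody is represented by 1 list of summits called after its replicates had been pooled. The lists give positions only, so sequencing depth, peak height and the spread between replicates cannot be taken from them and no comparison between antibodies could be tested. Libraries for H3K27me3 and for input chromatin were not analysed here. The lists held 18087 AML1-ETO, 19632 H3K4me3, 11692 AML1, 10004 N-CoR and 11020 p300 peaks. Ranges in brackets after a share are its 95% interval by the exact Clopper-Pearson method and reflect only the number of genes or summits counted.

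AML1 (RUNX1) is a transcription factor required for blood cell development. AML1-ETO, the protein made from the translocation, keeps its ability to bind DNA and gains from ETO the ability to recruit co-repressors such as N-CoR. Trimethylation of lysine 4 on histone H3 is laid down at the first nucleosomes of active and poised promoters, mostly at promoters rich in CpG dinucleotides. p300 is an acetyltransferase and co-activator found at promoters and enhancers, whereas N-CoR is the scaffold of a histone deacetylase complex.

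The genomic letters under the AML1-ETO summits are shown first, since the runt domain recognises TGTGGT and PU.1, an ETS family factor of myeloid cells, recognises GAGGAA. Every stretch below was read from hg19, is written 5′ to 3′ on the strand of the gene, and has TGTGGT (or its complement ACCACA) and GAGGAA (or TTCCTC) in capitals. The first set comes from genes with AML1-ETO and no H3K4me3 summit within 1 kb. They are 30-base stretches of the AML1-ETO summit windows of myeloid genes, picked for display after their values had been seen. BPI encodes a neutrophil granule protein that binds bacterial lipopolysaccharide. Its summit lay 50 bp upstream of the TSS, within introns of 2 unnamed overlapping genes, and both sets of letters were present, at chr20:36932460-36932489 and chr20:36932501-36932530 on the plus strand.
BPI, Runx letters: ccacaatggaaaACCACAgcggccctccct
BPI, PU.1 letters: tcaccaggttccTTCCTCctttccacattc
CSF1R, the receptor for macrophage colony-stimulating factor, held both as well, at chr5:149466171-149466200 in an intron and chr5:149466120-149466149 in an annotated UTR, on the minus strand.
CSF1R, Runx letters: atttccaaactcTGTGGTtgccttgcctag
CSF1R, PU.1 letters: cagcccaaggagGAGGAAGAGGAAaacaag
LTC4S, the enzyme that makes leukotriene C4, held both outside annotated genes, at chr5:179220908-179220937 and chr5:179220871-179220900 on the plus strand.
LTC4S, Runx letters: tccctggctctgTGTGGTatggtcacaccc
LTC4S, PU.1 letters: ccagactttggtTTCCTCcctgctggcttg
NFE2, an erythroid and megakaryocyte transcription factor, held both within an intron of an unnamed overlapping gene. The stretches lie at chr12:54694893-54694922 and chr12:54694875-54694904 on the minus strand and overlap.
NFE2, Runx letters: gtgtgggcagaaACCACAtcgggctcaagt
NFE2, PU.1 letters: tcgggctcaagtTTCCTCtcttggccgaaa

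The second set comes from genes with AML1-ETO and H3K4me3. In RUNX1 itself the summit lay 43 bp downstream of the distal start, in an annotated UTR, and 2 copies of the Runx letters stood side by side at chr21:36421552-36421581 on the minus strand. In TAL1, a stem cell transcription factor, the letters lay in an intron at chr1:47697558-47697587 on the minus strand. In SPI1, the gene of PU.1, the PU.1 letters lay outside annotated genes at chr11:47400252-47400281 on the minus strand.
RUNX1, Runx letters: aacaACCACAgaACCACAagttgggtagcc
TAL1, Runx letters: aatgcgcgaggcTGTGGTtggttttcattt
SPI1, PU.1 letters: ctcagtcccagcTTCCTCtgggcagggggc
A pair of whole 100 bp summit windows, picked for display, shows how different the surrounding sequence can be. Other windows went the other way. That of LGALS1, without H3K4me3, had 67.0% GC and 6 CG pairs, and that of ATP2B4, with H3K4me3, had 59.0% and 3. The window of CXCR3, a chemokine receptor gene without H3K4me3, at chrX:70838374-70838473 on the minus strand and outside annotated genes, had 55.0% GC and 0 CG pairs. The window of LNPEP, an aminopeptidase gene with H3K4me3, at chr5:96270870-96270969 on the plus strand and in an exon of an unnamed gene, had 70.0% GC, 13 CG pairs and neither set of letters.
CXCR3: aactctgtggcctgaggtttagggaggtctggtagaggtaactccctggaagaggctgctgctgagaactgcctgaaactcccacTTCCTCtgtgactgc
LNPEP: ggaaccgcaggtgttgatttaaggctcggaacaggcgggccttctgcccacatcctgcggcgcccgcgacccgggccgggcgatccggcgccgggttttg

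Most genes with AML1-ETO at the TSS also carried H3K4me3. AML1-ETO lay at 3702 genes, which is 18.4% of all genes tested, and H3K4me3 at 11867, or 58.9%. The 3417 genes with both (16.9% of all genes) made up 28.8% of the H3K4me3 genes, and the 285 genes without H3K4me3 (1.41% of all genes) made up 7.70% of the AML1-ETO genes. The count of 285 depended on the limits. It was 628 (19.9%) at 500 bp for both lists and 810 (21.9%) with H3K4me3 peak numbers up to 9816 only. It was 156 (10.2%) with AML1-ETO peak numbers up to 9043 only. Genes with H3K4me3 alone were 41.9% of all genes. Counted over 78869 distinct annotated starts in place of 1 start per gene, 12692 starts carried both marks, 1385 carried AML1-ETO only and 29901 carried H3K4me3 only. The gene counts concern a minority of the fusion protein's sites. With 1 TSS per gene, which leaves out other annotated starts, 20.0% (19.4 to 20.6%) of AML1-ETO summits lay within 1 kb of a TSS. The corresponding share was 72.1% (71.4 to 72.7%) for H3K4me3.

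The 2 marks occupied different positions around the TSS. At genes with both, AML1-ETO summits had a median position 61 bp upstream of the TSS, and 39.0% of 3693 summits fell within 100 bp of it. H3K4me3 summits at the same genes had a median position 228 bp downstream, and 1.76% of 4551 summits fell within 100 bp. The nearest pair of AML1-ETO and H3K4me3 summits at a gene was 317 bp apart at the median, with quartiles of 223 and 471 bp, and 7.17% of pairs were within 99 bp, the distance at which the 100 bp windows overlap. At genes without H3K4me3 the position of AML1-ETO was close to this pattern, with a median 70 bp upstream and 32.1% of 305 summits within 100 bp. At genes with H3K4me3 alone, 68.2% of H3K4me3 summits lay downstream of the TSS, against 68.9% at genes with both.

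**Figure D1:**
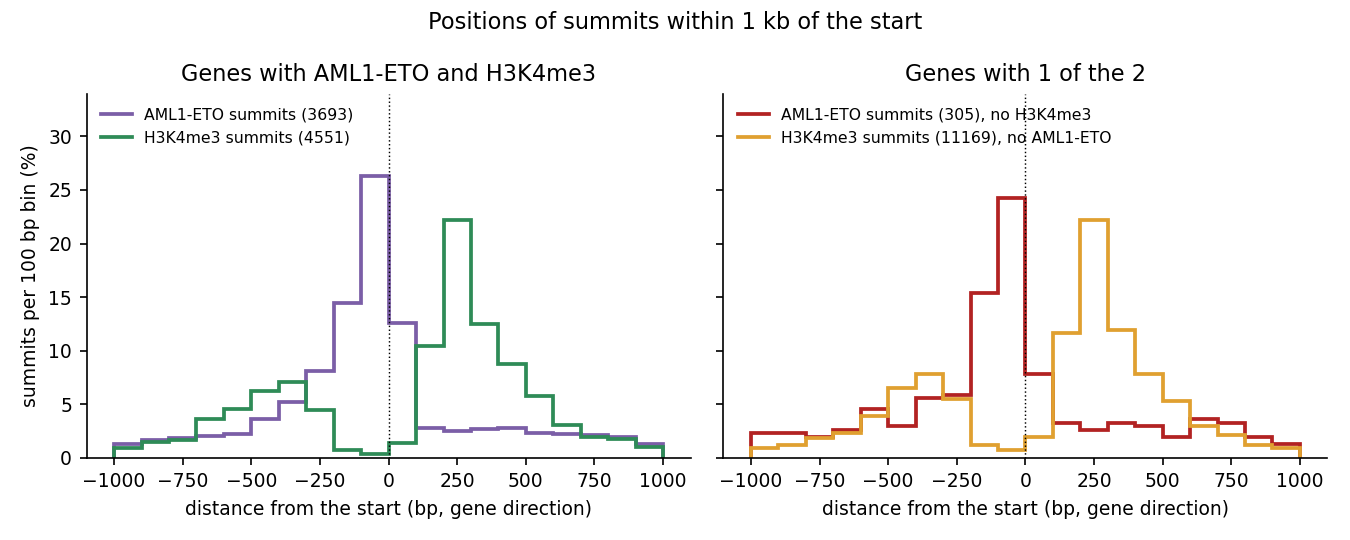
Share of summits (percent, per 100 bp bin) by distance from the TSS in bp along the gene, for AML1-ETO and H3K4me3 at genes with both marks (left) and at genes with 1 of them (right). AML1-ETO peaks just upstream of the TSS in both panels, while H3K4me3 has its highest bin 200 to 300 bp downstream and few summits within 100 bp of the TSS.

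At the genes with AML1-ETO and no H3K4me3 summit within 1 kb, the distance to that mark varied widely. The nearest H3K4me3 summit was at a median of 18343 bp. It lay 1 to 1.5 kb away at 57 of the 285 genes, 1.5 to 2 kb away at 10, 2 to 5 kb away at 24, 5 to 10 kb away at 23, 10 to 50 kb away at 85, and farther still at 86. Thus 194 genes (68.1%) had no H3K4me3 summit within 5 kb, and the other 91 lay near one. At 60 genes another annotated start of the same gene carried H3K4me3, among them CBFA2T3 and NFKBID. At the limits of the 1 kb window, the AML1-ETO summit of MAPKAPK2 lay 1000 bp away and was counted, as were those of CSNK2B and PPP3R1 at 998 bp. Those of CERCAM at 1001 bp and of AP4M1 and ADCY4 at 1003 bp were not. For H3K4me3 at AML1-ETO genes, PDE8A at 1000 bp, GNL1 at 999 bp and SETD1B at 996 bp were counted, and CEP250 at 1002 bp, SLC39A8 at 1005 bp and PDLIM2 at 1009 bp were not.

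Between AML1-ETO genes with and without H3K4me3, p300 differed, whereas the intervals of N-CoR and of AML1 overlapped over all promoters. Over all genes a summit lay within 1 kb of the TSS in 34.1% for p300, 10.1% for N-CoR and 14.8% for AML1. p300 was present at 72.5% (71.0 to 74.0%) of genes with AML1-ETO and H3K4me3, at 50.5% (49.4 to 51.6%) of genes with H3K4me3 alone, and at 25.3% (20.3 to 30.7%) of genes with AML1-ETO alone. N-CoR was present at 35.7% (34.1 to 37.3%) of genes with both marks and 36.1% (30.6 to 42.0%) of genes with AML1-ETO alone, intervals that overlap, and at 8.02% (7.45 to 8.62%) of genes with H3K4me3 alone. The AML1 shares in the same order were 47.5% (45.8 to 49.2%), 46.3% (40.4 to 52.3%) and 14.1% (13.3 to 14.8%). Genes without either mark had p300 in 0.811%, N-CoR in 0.362% and AML1 in 0.449%.

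The pairing of the co-repressor and the co-activator differed accordingly. N-CoR without p300 was found at 20.0% (15.5 to 25.1%) of genes with AML1-ETO alone, at 4.30% (3.65 to 5.04%) of genes with both marks and at 1.02% (0.815 to 1.26%) of genes with H3K4me3 alone. p300 without N-CoR was found at 9.12% (6.05 to 13.1%), 41.1% (39.4 to 42.8%) and 43.5% (42.4 to 44.6%). None of the 3 proteins lay within 1 kb at 39.7% (33.9 to 45.6%) of genes with AML1-ETO alone and 17.9% (16.6 to 19.2%) of genes with both. Where AML1-ETO windows were required to overlap those of p300, the shares were 39.3% at genes with both marks and 18.9% at genes with AML1-ETO alone.

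Among genes with AML1-ETO alone, p300 varied with the distance of H3K4me3. It was present at 50.5% (39.9 to 61.2%) of the 91 genes with an H3K4me3 summit 1 to 5 kb away and at 13.4% (8.95 to 19%) of the 194 genes without one, a split chosen after the data had been seen. N-CoR was present at 41.8% (31.5 to 52.6%) and 33.5% (26.9 to 40.6%) of these genes, and AML1 at 48.4% (37.7 to 59.1%) and 45.4% (38.2 to 52.7%). CpG-rich promoters, defined below, were at 50.5% (39.9 to 61.2%) and 19.1% (13.8 to 25.3%) of them. Whether p300 went with the distance or with CpG content was not tested.

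**Figure D2:**
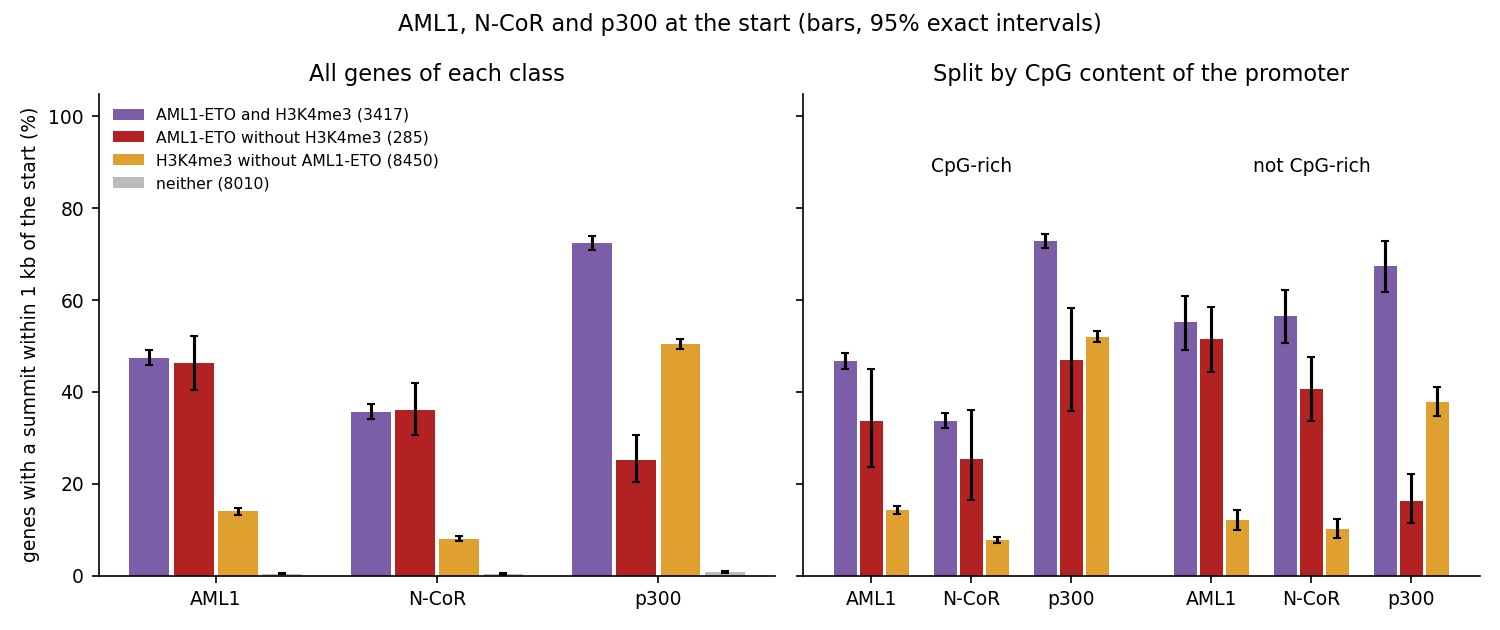
Share of genes (percent) with an AML1, N-CoR or p300 summit within 1 kb of the TSS in each class, for all genes (left) and with promoters split into CpG-rich and others (right, 3 classes). Bars are shares and whiskers exact 95% intervals, and the p300 bar of genes with AML1-ETO alone stands below that of genes with both marks in either split.

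CpG content moved with H3K4me3. A promoter was called CpG-rich when the stretch from 250 bp upstream to 50 bp downstream of the TSS had at least 50% GC and an observed to expected CpG ratio of at least 0.6, and 65.0% of all promoters were. The share was 91.5% (90.5 to 92.4%) at genes with both marks, 89.1% (88.4 to 89.8%) at genes with H3K4me3 alone and 29.1% (23.9 to 34.8%) at genes with AML1-ETO alone, beside 29.6% (28.6 to 30.6%) at genes with neither. Put the other way, H3K4me3 was missing at 83 of 3208 AML1-ETO genes with a CpG-rich promoter (2.59%, 2.07 to 3.20%) and at 202 of 494 without one (40.9%, 36.5 to 45.4%). AML1-ETO was present at 29.3% (28.5 to 30.2%) of H3K4me3 genes with a CpG-rich promoter and 24.1% (21.7 to 26.6%) of those without. The TATA letters TATAAA were searched 40 to 20 bp upstream of the TSS on the gene strand. They were found at 3.51% of genes with AML1-ETO alone, 1.73% with both, 1.65% with H3K4me3 alone, 7.18% with neither and 3.88% of all genes.

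The difference in p300 was present within each kind of promoter. At promoters that were not CpG-rich, p300 lay at 67.5% (61.8 to 72.8%) of 292 genes with both marks and at 16.3% (11.5 to 22.2%) of 202 genes with AML1-ETO alone. At CpG-rich promoters the shares were 73.0% (71.4 to 74.5%) and 47.0% (35.9 to 58.3%). N-CoR was lower at genes with AML1-ETO alone than at genes with both when only promoters that were not CpG-rich were compared, at 40.6% (33.8 to 47.7%) against 56.5% (50.6 to 62.3%). At CpG-rich promoters the N-CoR shares were 25.3% (16.4 to 36.0%) and 33.8% (32.1 to 35.5%), intervals that overlap. AML1 lay at 33.7% (23.72 to 44.95%) of CpG-rich promoters with AML1-ETO alone against 46.8% (45.02 to 48.55%) of those with both, intervals that come close without overlapping. At promoters that were not CpG-rich the AML1 shares were 51.5% (44.4 to 58.6%) and 55.1% (49.2 to 60.9%), intervals that overlap. These splits were also chosen after the data had been seen.

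The letters under the summits differed between the classes as well. Motifs were searched on both strands of the 100 bp summit windows, and windows 1000 bp to either side served as the background. The background windows were not matched for GC content or for distance from the TSS. They cannot separate letters of AML1-ETO summits from letters common to promoters. TGTGGT was present in 22.7% (18.0 to 28.0%) of the 286 AML1-ETO summits near starts without H3K4me3 and 10.8% (9.73 to 11.9%) of the 3325 near starts with it. It was present in 36.2% (35.4 to 37.0%) of the 14476 more than 1 kb from every TSS used, 1 per gene. This last group includes summits at other annotated starts, such as the proximal promoter of RUNX1. The background windows had TGTGGT in 4.72%, 4.81% and 7.01%. GAGGAA was present in 26.2% (21.2 to 31.7%), 13.4% (12.2 to 14.6%) and 28.8% (28.1 to 29.6%), against 9.62%, 8.81% and 8.80%. CCGGAA, the letters of ETS factors at CpG-rich promoters, went the other way, with 4.90% (2.70 to 8.08%), 16.5% (15.3 to 17.9%) and 5.29% (4.93 to 5.67%), against 1.40%, 2.32% and 1.20%. Runx and PU.1 letters stood together in 1 window at 4.90% (2.70 to 8.08%) of summits near starts without H3K4me3 and at 1.50% (1.12 to 1.98%) of those near starts with it. Median GC of the windows was 60.0%, 68.0% and 53.0% in the same order, and its part in these differences was not tested.

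**Figure D3:**
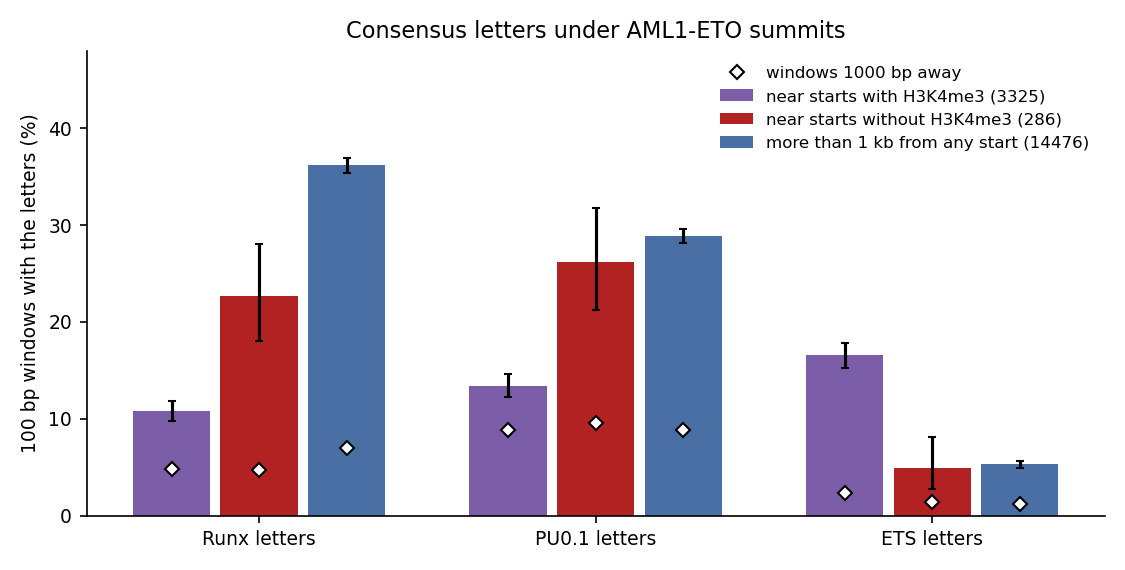
Share of 100 bp AML1-ETO summit windows (percent) with the Runx, PU.1 or ETS letters. The axis label of the middle group is misprinted and stands for PU.1. Summits are grouped as near a start with H3K4me3, near a start without it, or more than 1 kb from every start used (1 per gene). Whiskers are exact 95% intervals and diamonds the share in windows 1000 bp away, and for PU.1 and ETS letters the summits near starts without H3K4me3 stand beside the distal summits.

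Over the whole promoter stretch, from 250 bp upstream to 50 bp downstream, the same letters were compared with all promoters. TGTGGT was present in 26.0% of promoters with AML1-ETO alone, 10.4% with both, 6.81% with H3K4me3 alone and 10.8% of all promoters. GAGGAA was present in 40.7%, 28.0%, 25.5% and 27.2% of these promoters, and CCGGAA in 11.9%, 32.1%, 32.3% and 22.6%. Promoters of genes with neither mark had TGTGGT in 14.7%, GAGGAA in 28.2% and CCGGAA in 8.69%. A match is a description of the letters and not of a bound site.

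Further AML1-ETO summits lay around many of these genes. A summit 1 to 20 kb from the TSS was found at 56.1% (50.2 to 62.0%) of genes with AML1-ETO alone, 41.8% (40.1 to 43.5%) with both, 30.3% (29.3 to 31.3%) with H3K4me3 alone and 29.3% of all genes. The TSS of a second protein-coding gene lay within 1 kb at 7.72% (4.90 to 11.5%) of genes with AML1-ETO alone, 20.6% (19.2 to 22.0%) of genes with both, 20.7% (19.8 to 21.6%) with H3K4me3 alone, 4.97% (4.50 to 5.47%) with neither and 14.2% of all genes.

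Among AML1-ETO genes, the share without H3K4me3 was higher for summits early in the AML1-ETO list. It was 17.0% (12.4 to 22.5%) for peak numbers 1 to 2000, 9.32% (6.37 to 13.0%) for 2001 to 4000, 10.1% (8.02 to 12.5%) for 4001 to 8000, 5.73% (4.31 to 7.44%) for 8001 to 12000 and 5.93% (4.79 to 7.25%) for 12001 to 18087. What sets the numbering is not given in the sources used here, so the order has no stated meaning.

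Granule protein genes included several of the genes without H3K4me3. Of 28 such genes, 6 carried AML1-ETO without H3K4me3 (21.4%, beside 1.41% of all genes) and 5 carried both (17.9%, beside 16.9%). In this list AML1-ETO lay at 39.3% of genes and H3K4me3 at 28.6%, beside 18.4% and 58.9% of all genes. BPI had AML1-ETO peak number 19, and its nearest H3K4me3 summit was 130681 bp away. Within 1 kb it had 1 summit each of AML1, N-CoR and p300, at 43, 68 and 72 bp upstream of the TSS. CTSG, which encodes cathepsin G, had AML1-ETO 136 bp upstream, all 3 other proteins within 1 kb, and its nearest H3K4me3 summit 133057 bp away. CAMP, the gene of the antimicrobial peptide cathelicidin, had AML1-ETO 154 bp upstream, none of the other proteins within 1 kb, and H3K4me3 17887 bp away. RNASE2 and RNASE3, 2 eosinophil ribonucleases of similar sequence, had AML1-ETO 186 and 243 bp downstream of the TSS, with H3K4me3 15893 and 79995 bp away.

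MPO, the gene of myeloperoxidase, was placed in the same class by the 1 kb limit but stood close to H3K4me3. It had AML1-ETO summits 114 and 972 bp upstream, an N-CoR and a p300 summit 111 and 99 bp upstream, and an H3K4me3 summit 2101 bp downstream. The granule genes with both marks included AZU1, PRSS57, SERPINB1 and CTSZ. In AZU1, which encodes azurocidin, AML1-ETO lay 62 bp upstream and H3K4me3 187 bp downstream of the TSS. ELANE, the neutrophil elastase gene, had H3K4me3 537 bp downstream and its nearest AML1-ETO summit 7362 bp away.

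Cell surface proteins of leukocytes showed the same class repeatedly. Among 87 leukocyte immune receptor genes, 11 (12.6%, beside 1.41% of all genes) carried AML1-ETO without H3K4me3 and 7 carried both (8.05%, beside 16.9% of all genes). AML1-ETO, with or without H3K4me3, lay at 20.7% of this list, beside 18.4% of all genes. H3K4me3 lay at 13.8% of it, beside 58.9%. The 11 were HCST, SIGLEC6, FCER1G, SIRPB2, SIRPB1, SIGLEC15, CD300C, TREML2, CLEC10A, LILRB2 and PILRA. FCER1G, the signalling chain of Fc receptors, had AML1-ETO 71 bp upstream and H3K4me3 10949 bp away. HCST, an adaptor of natural killer receptors, had AML1-ETO 43 bp upstream and H3K4me3 2166 bp away, and shared its peak, number 300, with the neighbouring gene NFKBID. CD33, the myeloid sialic acid receptor, carried both, with AML1-ETO 10 bp upstream and H3K4me3 354 bp downstream. Several receptors of this list have close paralogs, and how reads that align to more than 1 place were handled is not stated for the files.

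Of 35 genes of integrins, selectins and some of their ligands, 6 (17.1%, beside 1.41% of all genes) carried AML1-ETO without H3K4me3, namely SELPLG, ITGAM, ITGA2B, ICAM3, ITGAL and ITGAX, and 7 carried both (20.0%, beside 16.9%). SELPLG and ICAM3 encode ligands, of a selectin and of an integrin. In this list AML1-ETO lay at 37.1% of genes and H3K4me3 at 48.6%, beside 18.4% and 58.9% of all genes. ITGAM, the alpha chain of the leukocyte integrin Mac-1, had AML1-ETO 26 bp upstream with AML1 and N-CoR but no p300 within 1 kb, and H3K4me3 57432 bp away. ITGB2, its beta chain, had AML1-ETO 28 bp upstream, all 3 other proteins, and H3K4me3 240 bp downstream. The 2 chains of 1 receptor therefore fell in different classes at the 1 start used per gene. Another annotated start of ITGAM, 70405 bp from the one used, carried H3K4me3.

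Chemokines and their receptors had 5 of 72 genes (6.94%, beside 1.41% of all genes) with AML1-ETO alone, CXCR3, CCL24, ACKR3, CCL4 and CCL19, and 1 with both, CXCL8 (1.39%, beside 16.9% of all genes). In this list AML1-ETO lay at 8.33% of genes and H3K4me3 at 11.1%, beside 18.4% and 58.9% of all genes. Toll-like receptors and their adaptors had AML1-ETO alone at 2 of 15 (13.3%), TLR9 and TLR1, and leukotriene and prostaglandin enzymes and receptors at 3 of 20 (15.0%), LTC4S, ALOX5AP and LTB4R2, beside the same 1.41%. In ALOX5AP, which encodes the protein that presents arachidonic acid to 5-lipoxygenase, AML1-ETO lay 121 bp upstream and H3K4me3 61159 bp away. H3K4me3 was nearer in LTC4S and LTB4R2, at 2463 and 1599 bp. LTB4R2 shared its AML1-ETO peak, number 7631, with LTB4R, which carried both marks. S100 calcium-binding proteins had AML1-ETO alone at 2 of 16 (12.5%, beside 1.41%), S100A2 and S100A5, with S100A4, S100A6 and S100A11 carrying both (18.8%, beside 16.9%).

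Most signalling genes carried both marks. Of 30 myeloid signalling genes, 18 (60.0%, beside 16.9% of all genes) had AML1-ETO and H3K4me3 and 2 (6.67%, beside 1.41%), DOK2 and SLA2, had AML1-ETO alone. The nearest H3K4me3 summit was 1338 bp from the TSS of DOK2 and 40085 bp from that of SLA2. RAC2, a small GTPase of hematopoietic cells, had AML1-ETO 32 bp upstream, peak number 166, and H3K4me3 375 bp downstream. VAV1, an exchange factor for such GTPases, had AML1-ETO 2 bp upstream and H3K4me3 291 bp downstream. The NADPH oxidase, which makes superoxide in phagocytes, had 3 of 7 genes with both (42.9%, beside 16.9% of all genes), RAC2, NCF4 and CYBA. None of the 7 had AML1-ETO alone, which in so short a list says nothing beside 1.41% of all genes. Its catalytic subunit gene CYBB had neither mark within 1 kb, with AML1-ETO 7737 bp and H3K4me3 67277 bp away.

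Transcription factor genes carried H3K4me3 at 69.6% of myeloid and 63.6% of stem cell factors, beside 58.9% of all genes. Of 23 myeloid factors, 6 had both marks (26.1%, beside 16.9% of all genes), 10 had H3K4me3 alone (43.5%, beside 41.9%) and 2, GFI1 and NFE2, had AML1-ETO alone (8.70%, beside 1.41%). GFI1, a zinc finger repressor of granulocyte development, had AML1-ETO 77 bp upstream and 765 bp downstream and H3K4me3 1111 bp downstream, just beyond the limit. SPI1 had AML1-ETO 166 bp upstream and H3K4me3 369 bp downstream, and CEBPA, the gene of C/EBPα, had H3K4me3 320 bp downstream and AML1-ETO 15409 bp away. Of 22 stem cell factors, 7 had both (31.8%, beside 16.9% of all genes), RUNX1, LMO2, TAL1, LYL1, ETV6, RUNX3 and FLI1, and 1, CBFA2T3, had AML1-ETO alone (4.55%, beside 1.41%). CBFA2T3, a paralog of ETO, had AML1-ETO alone at its TSS, 33 bp downstream with peak number 46, and its nearest H3K4me3 summit was 36555 bp away.

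RUNX1 has a distal and a proximal promoter, and both carried both marks. At the distal TSS, AML1-ETO lay 43 bp and H3K4me3 876 bp away, and at the proximal starts the nearest distances were 60 to 897 bp and 137 to 641 bp. A further annotated start far upstream had neither, with AML1-ETO 145740 bp away.

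Growth factor and interleukin receptors had 21 of 79 genes (26.6%, beside 16.9% of all genes) with both marks, among them IL6R, CSF3R, FLT3 and IFNGR1, and 4 with AML1-ETO alone (5.06%, beside 1.41%). Of these 4, CSF1R had AML1-ETO 43 bp upstream and AML1 61 bp upstream, neither N-CoR nor p300 within 1 kb, and H3K4me3 85619 bp away. KIT, the stem cell factor receptor, had AML1-ETO 11 bp upstream and 655 bp downstream and H3K4me3 1086 bp downstream. The others were IL21R and IL1RN, the second of which encodes a secreted antagonist and not a receptor.

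Housekeeping groups had H3K4me3 at 94.3% of ribosomal protein, 93.8% of proteasome and 96.2% of DNA repair genes, beside 58.9% of all genes. Of 87 ribosomal protein genes, 28 (32.2%, beside 16.9%) carried both marks, 54 carried H3K4me3 alone (62.1%, beside 41.9%) and 0 carried AML1-ETO alone. AML1-ETO alone was at 1.41% of all genes, so a count of 0 says little about a short list. The count was also 0 among 48 proteasome, 87 respiratory chain, 53 DNA repair, 35 cell cycle and 258 chromosome 19 zinc finger genes, with 7, 18, 17, 6 and 31 genes carrying both (14.6%, 20.7%, 32.1%, 17.1% and 12%, beside 16.9% of all genes). It was 1 of 84 for histones (H4C13). Among genes with H3K4me3 only, AML1-ETO lay at 28 of 82 ribosomal protein, 17 of 51 DNA repair and 7 of 45 proteasome genes. The counts were 18 of 80 for respiratory chain, 6 of 31 for cell cycle and 31 of 188 for zinc finger genes. Over all H3K4me3 genes the share with AML1-ETO was 28.8%. RPL32, which encodes a ribosomal protein, had H3K4me3 peak number 2, at 491 bp downstream, a p300 summit at 101 bp, and AML1-ETO 74792 bp away. Among groups known for expression in other tissues, AML1-ETO was at 1 of 414 olfactory receptor genes (OR1E2, without H3K4me3) and 0 of 55 keratin genes, beside 18.4% of all genes, and H3K4me3 was at 2 and 0 of them, beside 58.9%. HOX genes had both marks at 2 of 39 (5.13%, beside 16.9%) and H3K4me3 alone at 4 (10.3%, beside 41.9%), and MHC class II genes had H3K4me3 at 1 of 13 (7.69%, beside 58.9%).

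**Figure D4:**
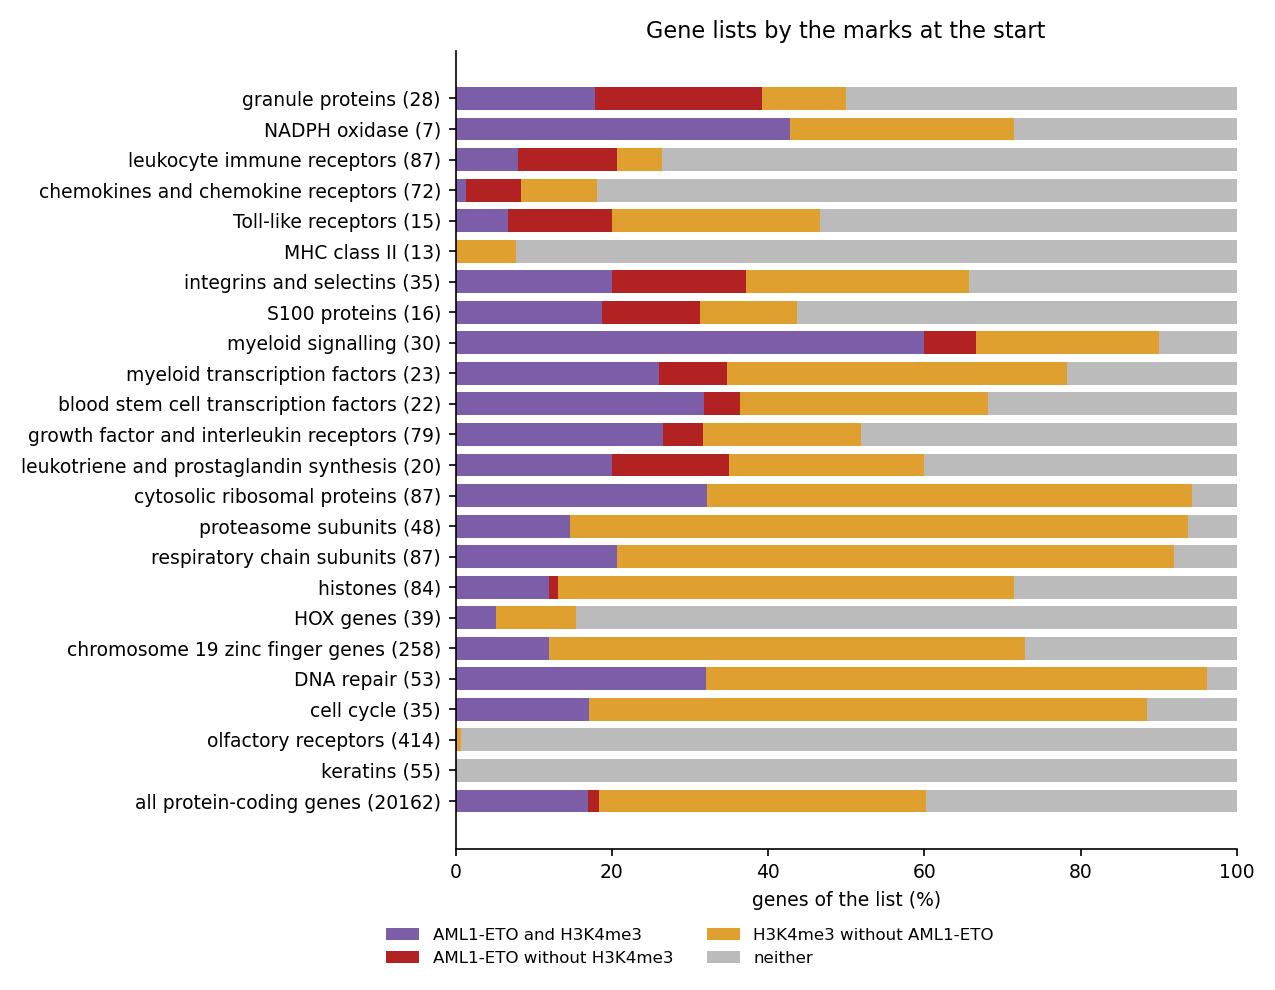
Share of genes (percent) of each list, the marker lists left out, in the 4 classes, with the number of genes in brackets and all protein-coding genes in the bottom bar. The red segments, AML1-ETO without H3K4me3, are widest among the lists drawn for granule proteins and for integrins and selectins (some ligands included) and are absent from the ribosomal, proteasome, respiratory chain, zinc finger, DNA repair and cell cycle lists.

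A few marker promoters of the labelled cell type were looked up. Of 5 myeloblast markers, 3 (60.0%, beside 58.9% of all genes), CD33, CD34 and ELANE, had H3K4me3 within 1 kb, whereas KIT and MPO had it 1086 and 2101 bp downstream. CD3E, HBB, ALB and INS, markers of other lineages, had neither mark within 1 kb, as had 8010 of all 20162 genes. Lists this short do not check the label.

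The genes with the lowest AML1-ETO peak numbers show both classes side by side. Without H3K4me3 these were BPI, CBFA2T3, LST1, KAZALD1, C20orf203, RAP1GAP2, NFKBID, HCST, TGFB1, AL590560.1, LGALS1 and CXCR3. Of these 12, TGFB1 had H3K4me3 1040 bp away and KAZALD1 1484 bp away, while RAP1GAP2 and CXCR3 had it 85300 and 85030 bp away. With H3K4me3 they were RNF149, CYP51A1, LNPEP, ATP2B4, SDE2, SLC39A13, MSL2, LGALS12, CCDC88A, SEC14L1, RAC2 and HYLS1. An N-CoR summit lay within 1 kb of the TSS at each gene of both sets, and an AML1 summit at each except TGFB1, beside 10.1% and 14.8% of all genes. These genes were chosen by peak number, which moved with both proteins. Where the AML1-ETO number was at most 9043, N-CoR was at 53.2% of genes with AML1-ETO alone and 53.9% of genes with both, and AML1 at 61.5% and 64.5%. Above that number the N-CoR shares were 15.5% (9.73 to 22.9%) and 23.6% (21.8 to 25.5%), intervals that overlap. The AML1 shares there were 27.9% (20.4 to 36.5%) and 36.2% (34.1 to 38.3%), which overlap as well. LST1, a leukocyte transcript gene of the MHC region, had AML1-ETO 435 bp downstream, 2 N-CoR and 2 p300 summits, and H3K4me3 4870 bp upstream. The genes with the most AML1-ETO summits at a TSS without H3K4me3 included ANXA2R, with 3, and KAZALD1, MPO and GFI1, with 2 each.

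TYROBP and LAPTM5 lie next to peaks early in the AML1-ETO list but just beyond the 1 kb limit. TYROBP, the adaptor of many myeloid receptors, carried neither mark at its TSS by the 1 kb limit, but AML1-ETO peak number 4 lay 1199 bp upstream with AML1, N-CoR and p300 beside it, and H3K4me3 lay 7932 bp away. LAPTM5, a lysosomal membrane protein of blood cells, was counted as H3K4me3 alone, with that mark 217 bp downstream and AML1-ETO peak number 43 at 1053 bp downstream. RPS6KA1, a ribosomal S6 kinase gene, had H3K4me3 286 bp upstream and its nearest AML1-ETO summit 12264 bp from the TSS used. Inside this gene or within 5 kb of it lay 3 AML1-ETO summits.

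**Figure D5:**
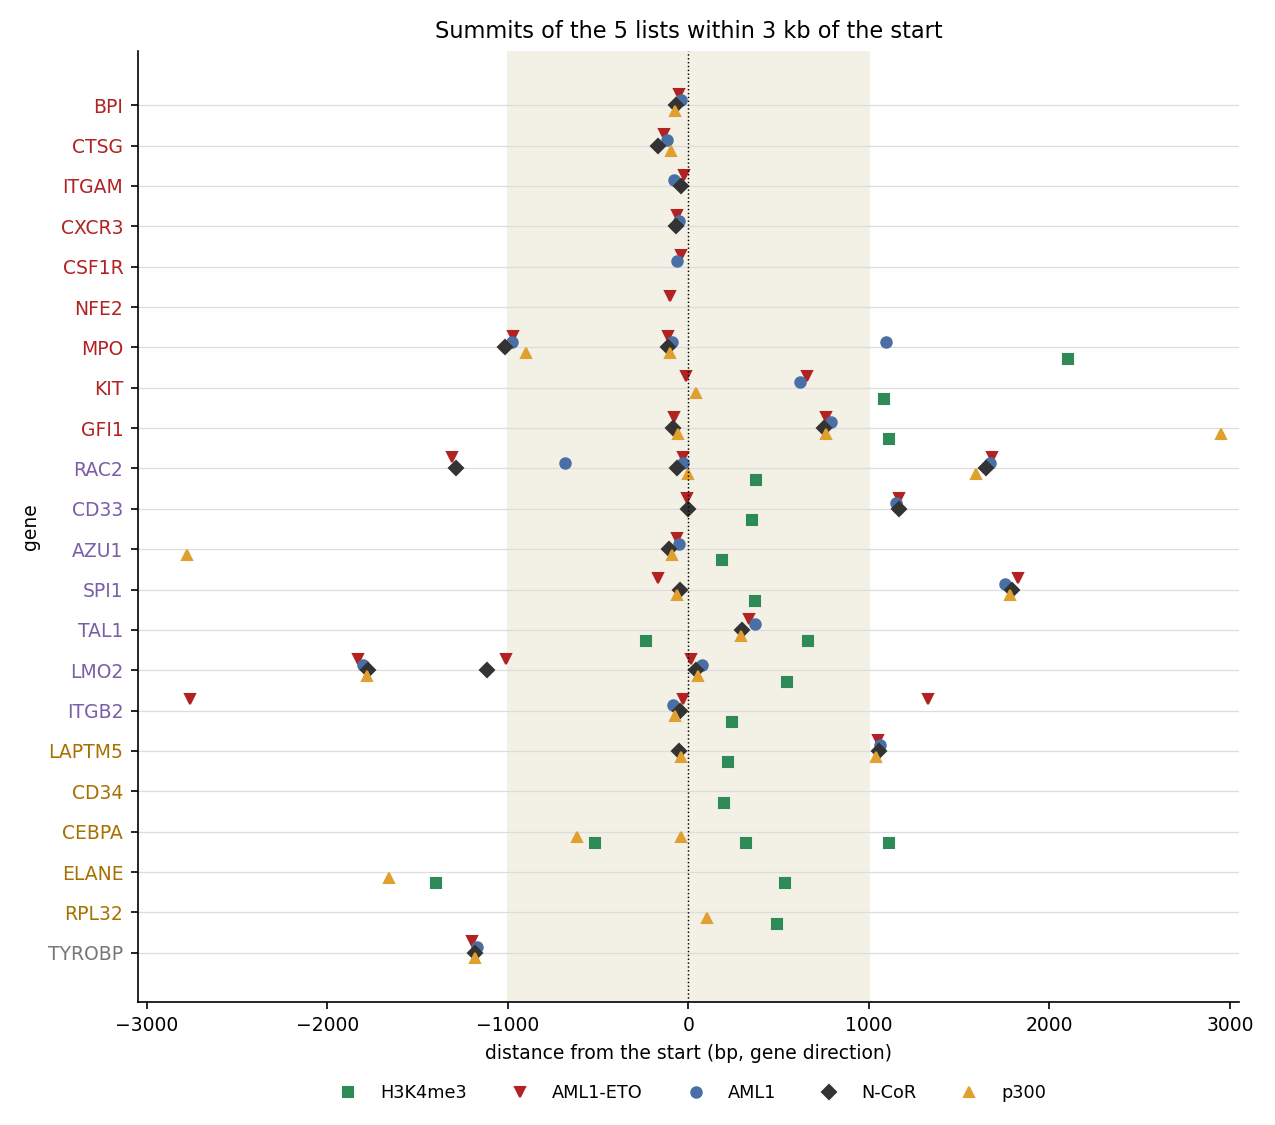
Summits of the 5 lists within 3 kb of the TSS (bp along the gene, 1 row per gene) for genes with AML1-ETO without H3K4me3 (red names), with both (purple), with H3K4me3 alone (brown) and with neither (grey), picked after the data had been seen. The shaded band is the 1 kb window, and the H3K4me3 squares of MPO, KIT and GFI1 lie outside it while BPI, CTSG, ITGAM, CXCR3, CSF1R and NFE2 have none within 3 kb.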

How the data were processed

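Kasumi-1 ChIP-seq libraries were sequenced by the authors, and reads were aligned to hg19. Their processing notes name CASAVA 1.6, Bowtie 0.12.8 and MACS2 2.0.10.20131216. Replicates were pooled before peak calling. The deposited BED files hold positions, 100 bp windows around each summit, with no score or read count, so precision from depth cannot be given. The role of the input library in calling is not given in the sources used here.

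A summit was the window start plus 50 bp. One TSS per gene came from GENCODE release 44 lifted to GRCh37: 19540 Ensembl canonical, 280 most upstream protein-coding and 342 gene starts, nuclear genes only. Peaks on the mitochondrial genome (1 for H3K4me3, 6 for AML1, 1 for N-CoR) were left out. The counting step was run on simulated summits around well separated starts, where 2000 of 2000 genes were placed as made. That run does not test the peak calls, the choice of start or starts close together. No test between lists was possible, so shares carry exact intervals (SciPy 1.17.1). Sequences were read with pysam 0.24.0.

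Named genes were those with the lowest peak numbers in each class (12, 12 and 8), up to 6 AML1-ETO members per gene list and others that a count needed, loci named in the study, the 3 genes on each side of the 1 kb limit, and the 5 genes with the most summits. In the gene lists, members beyond these were named after their values were seen. Of the 8 for H3K4me3 alone, RPL32 is described. Results for some genes of the rule are not reported here. The members and the 25 lists were chosen with earlier results of these data known. Alternatives covered other distances, starts, shortened lists, chromosomes, motif windows and letters.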

Additional observations from a re-analysis of the deposited data

How the results depend on the processing

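Of 50 alternative values for the class counts and their 2 shares, 33 stayed within 1.5 times the reported count or inside the 95% interval of the reported share, and 17 moved. The number of genes with both marks fell to 1366 with only AML1-ETO peak numbers up to 9043. The number without H3K4me3 was 628 at 500 bp for both lists, 156 with this shortened AML1-ETO list and 810 with H3K4me3 peak numbers up to 9816 only. The share of AML1-ETO genes without H3K4me3 (7.70%) was 19.9% at 500 bp, 5.89% and 5.24% with H3K4me3 allowed within 2000 and 5000 bp, 11.6% with the most upstream start, 10.2% and 21.9% with the shortened AML1-ETO and H3K4me3 lists, and 8.83% without starts near another gene. The share of H3K4me3 genes with AML1-ETO (28.8%) was 24.3% at 500 bp, 31.9% at 2000 bp, 27.8% with H3K4me3 within 5000 bp, 32.4% with any start, and 11.5% and 32.4% with the 2 shortened lists. The cause was not tested, beyond fewer peaks in the shortened lists and a wider or narrower window. p300 was less common at genes with AML1-ETO alone than at genes with both on either side of AML1-ETO peak number 9043, at 30.1% against 76.6% and 19.4% against 69.8%, alternatives added after seeing the data. Counting TGCGGT as Runx letters too gave 36.4% near starts without H3K4me3, 25.7% near starts with it and 42.5% away from the starts used. A longer form of the PU.1 letters gave 6.99%, 2.74% and 7.66% in the same order. With 100 bp to either side of the summit, TGTGGT was in 31.8%, 14.9% and 45.8% and GAGGAA in 40.2%, 24.9% and 43.4%. CCGGAA was then in 8.39%, 25.2% and 8.12%. Of 72 alternative shares of the other proteins, letters and CpG-rich promoters, 24 stayed within the interval of the reported share and 48 moved. No paired analysis was possible because each antibody has 1 pooled list. Without deposited scores, a stricter peak threshold could not be applied, and an absent summit does not show that a mark is absent.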

Other observations

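The share of AML1-ETO genes without H3K4me3 varied between chromosomes, from 2.94% on chromosome 18 and 3.39% on chromosome 10 to 12.7% on chromosome 17 and 13.0% on chromosome 20. It was 5.96% on chromosome 8 and 4.88% on chromosome 21, which take part in the translocation. These are counts over 68, 177, 229, 108, 151 and 41 AML1-ETO genes, and no difference between chromosomes was tested.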
